A study of Mus musculus with 4 samples.

Results

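The 10 genes described here move iron into cells, store it, export it, or break down haem: Tfrc, Slc11a2, Steap3, Slc11a1, Fth1, Ftl1, Slc40a1, Cp, Hmox1 and Blvrb. They were taken by symbol, and all 10 were found among the 23259 symbols with a value. RNA came from macrophages grown from the bone marrow of C57BL/6 mice aged 7 weeks and given the cytokine IL-4 for 24 h. There were 2 libraries with the genotype label wild type and 2 with the label Sema6D-/-, a genotype in which the gene of the membrane semaphorin Sema6D is disrupted. All 4 libraries had IL-4, so no library shows these genes without it. The labels do not say which part of Sema6d is missing, or whether libraries of 1 label came from separate mice, so the p-values reflect no more than the spread among these libraries, and that spread may be technical. Values are FPKM, fragment numbers scaled for transcript length and for the size of the library, given as mean ± SD with n = 2 libraries per label. Differences are Sema6D-/- minus wild type in log2(FPKM + 1), a scale that understates the change of low genes, with p-values from limma adjusted over all genes tested.

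Macrophages recycle most of the body's iron. They take up transferrin-bound iron through the transferrin receptor and iron in haem by engulfing old red cells, whose haem they cut with haem oxygenase. Iron is then stored inside ferritin shells or exported through ferroportin. Alternative activation by IL-4 is known to favour iron recycling and export, while inflammatory activation favours retention. When iron is scarce, the iron regulatory proteins bind hairpins in messenger RNA called iron-responsive elements. Binding in the 5′ untranslated region blocks translation, and binding in the 3′ untranslated region protects the message from decay.

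The hairpins of the members are shown first because they divide the members by how iron is known to control them. GENCODE transcripts of the mm10 assembly were searched on the transcribed strand for CNNNNNCAGTGN, with the last base not G, followed by 5 bases that pair with the 5 before the loop. A match was present in the 5′ untranslated region of 21 of 21087 genes (0.0996%) and in the 3′ untranslated region of 98 of 21105 genes (0.464%). Of the 10 members, 3 had it in the 5′ region (Fth1, Ftl1 and Slc40a1) and Tfrc had it 4 times in the 3′ region. Matches of this strict pattern are a description of sequence, and members without one may carry hairpins of another form. Each is printed as 29 bases, 5′ to 3′, with the loop in capitals.
Fth1, chr19:9982732-9982760, plus strand: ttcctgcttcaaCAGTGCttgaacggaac
Ftl1, chr7:45459779-45459807, minus strand: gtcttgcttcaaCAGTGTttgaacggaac
Slc40a1, chr1:45925465-45925493, minus strand: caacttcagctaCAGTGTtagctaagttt
Tfrc hairpin 1, chr16:32631219-32631247, plus strand: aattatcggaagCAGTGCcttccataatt
Tfrc hairpin 2, chr16:32631598-32631626, plus strand: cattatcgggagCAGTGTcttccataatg
Tfrc hairpin 3, chr16:32631663-32631691, plus strand: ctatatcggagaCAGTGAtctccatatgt
Tfrc hairpin 4, chr16:32631710-32631738, plus strand: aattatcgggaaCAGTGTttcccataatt

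The libraries were checked before the comparison. Their FPKM summed to between 527755 and 563890, and the steps of low values put the depth at about 8100000 to 9300000 fragments. Sema6d was low throughout, from 0.106 to 0.389 FPKM, and the labels overlapped. Wild type libraries have titles in K and Sema6D-/- libraries titles in W, and Sema6d did not check which is which. Every direction is therefore that of the genotype label, and would turn around if the labels were exchanged. Macrophage genes were abundant: the 11 marker genes found summed to 5789 and 6069 FPKM under wild type and 5463 and 5475 under Sema6D-/-. Of 10 tested, 1 was higher, Emr1 (332 to 470 in mean), and 4 were lower. These were Itgam (294 to 212), Cd14 (53.1 to 27.8), Lyz2 (3199 to 2483) and Aif1 (49.8 to 33.3). The other 5 did not pass. The 13 erythroid markers found, which include globin genes, summed to 1.79 to 2.81 FPKM, and Slc4a1 and Car1 were listed at 0 in all 4 libraries. Neutrophil markers were higher in sum under Sema6D-/-, at 265 and 255 against 802 and 661 FPKM over 12 genes, mostly S100a8 and S100a9. Of 11 tested, 6 were higher and 1, Csf3r, was lower (35.2 to 21.6). Over all tested genes 4.80% were higher and 4.91% lower. Of 11 markers of eosinophils, basophils and mast cells found, 4 were tested, and all 4 differed. Prg2 (0.947 to 5.95 FPKM in mean), Ccr3 (3.99 to 9.0) and Mcpt8 (0.238 to 2.06) were higher and Siglec5 (11.7 to 5.56) was lower. Prg2 and Mcpt8, like the neutrophil marker Mpo (0.916 to 2.70), had a wild type mean under 1 FPKM. They were thus tested only because their Sema6D-/- values were high. The other markers found lay under the filter, and Mcpt4 and Tpsb2 were listed at 0 in all 4 libraries. Of 3 tested dendritic cell markers, Itgax was lower (404 to 312). S100a8, which encodes a granulocyte calcium-binding protein, rose from 75.6 ± 4.9 to 264 ± 44 FPKM. In bulk RNA, a different number of cells of a type and a different amount of RNA per cell cannot be told apart.

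Among the members, Tfrc rose 2.55-fold in the libraries labelled Sema6D-/-, and the iron exporter Slc40a1 and the phagosomal metal transporter Slc11a1 rose 1.27-fold and 1.26-fold. The other 6 tested members did not pass. Cp, at a mean under 1 FPKM, lay below the filter of the main test. Thus 3 of 9 tested members were higher and 0 lower, while of all tested genes 4.80% passed as higher and 4.91% as lower (threshold of 0.05). By limma without adjustment, 6 members were higher and 1 lower at p under 0.05, where 12.9% of all tested genes were higher and 12.2% lower. The median difference was 0.21 over the 9 tested members and 0.0029 over all tested genes. The libraries of the labels did not overlap for 7 of the 9, all higher under Sema6D-/-, and for 1 that was lower, against 28.8% and 27.4% of all tested genes. These members were chosen with earlier results of the data known, so no test of the list is given. With any 1 library left out, between 0 and 2 members were higher.

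**Figure D1:**
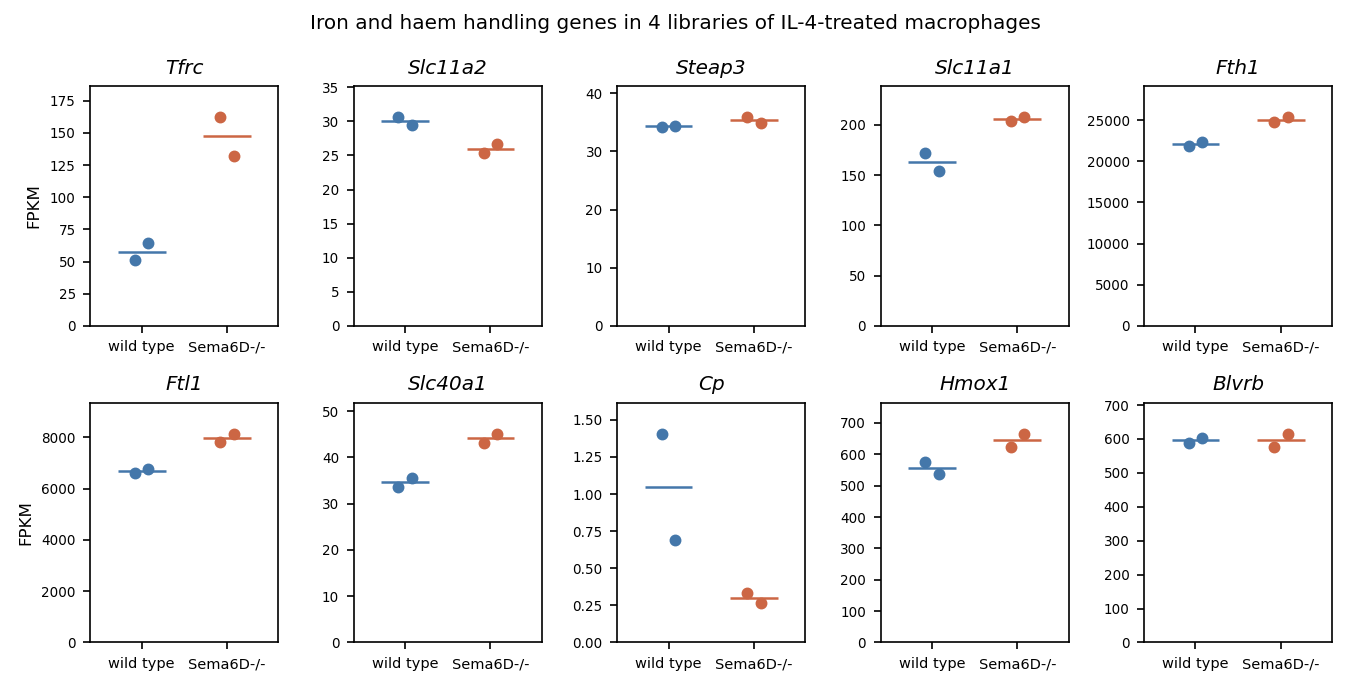
FPKM of each of the 10 genes (y axes from 0, each with its own range) in the 2 libraries labelled wild type (blue) and the 2 labelled Sema6D-/- (orange), with lines at the group means. Tfrc shows the widest gap, 51.1 and 64.3 against 162 and 132 FPKM, while the libraries of Blvrb overlap.

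Levels spanned a wide range. Fth1 was the most abundant or second most abundant of all symbols in each library, and Ftl1 ranked between 6 and 8. Hmox1 and Blvrb came next among the members, ranked 81 to 102, and their libraries overlapped one another. Slc11a1 ranked 339 to 459. Tfrc ranked 1527 and 1196 under wild type but 452 and 564 under Sema6D-/-. Slc40a1 and Steap3 overlapped under wild type at about 34 FPKM and separated under Sema6D-/-, where Slc40a1 was above Steap3 in both libraries. Slc11a2 lay just below them and Cp ranked between 9700 and 11266. FPKM is per length, so these are levels per unit of transcript, and they depend on the transcript lengths the authors used.

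Tfrc encodes the transferrin receptor, which carries iron-loaded transferrin into endosomes. It lies on chromosome 16 from 32608920 to 32632794 of mm10. Tfrc measured 51.1 and 64.3 FPKM under wild type and 162 and 132 FPKM under Sema6D-/-. Each Sema6D-/- library was thus more than 2 times the higher wild type library, and the 2 libraries of a label differed by less than the labels did. The group means were 57.7 ± 9.4 and 147 ± 21 FPKM, a difference of 1.34 ± 0.14 (SE) on the log2 scale (95% interval 0.99 to 1.69, adjusted p = 0.00715). This placed Tfrc at the 99.3 percentile of differences over all tested genes. Without Sema6D-/- replicate 1, the library with the highest value, the difference was 1.19 and the adjusted p = 0.0647. Without any filter on low values it was 1.34 with adjusted p = 0.211. Summed neutrophil markers, mostly S100a8 and S100a9, moved with Tfrc (265 and 255 against 802 and 661 FPKM), although Csf3r was lower and Mmp8 overlapped. So did the eosinophil, basophil and mast cell markers (16.5 and 18.5 against 27.9 and 21.6 FPKM in sum), of which Siglec5 was lower. The part of either in the Tfrc difference was not tested. Erythroid cells also make much Tfrc. Their markers summed to between 1.79 and 2.81 FPKM per library, and their part in the Tfrc difference was not tested. Mki67, a marker of dividing cells chosen after its values were seen, fell from 2.24 to 1.03 FPKM in mean (adjusted p = 0.0307), while Pcna, a DNA replication and repair gene chosen in the same way, rose from 153 to 244 (adjusted p = 0.00308). Mki67 lost its call with any 1 library left out, with a difference between -0.697 and -0.655. Pcna kept its call then, with a difference between 0.635 and 0.712. Both lost the call without a filter (adjusted p = 0.164 and 0.104).

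The other import genes did not follow Tfrc. Slc11a2 on chromosome 15 (100387898 to 100425072) encodes DMT1, which moves ferrous iron across the endosomal membrane. It was at 30.6 and 29.5 FPKM under wild type and 25.3 and 26.7 under Sema6D-/-, lower in each library but short of the threshold (difference -0.20, 95% interval -0.35 to -0.06, adjusted p = 0.097). Steap3 on chromosome 1 (120190757 to 120272705) encodes the endosomal reductase that turns ferric into ferrous iron before DMT1 carries it. Its values were close to equal, 34.2 and 34.4 against 35.8 and 34.9 FPKM. The 95% interval of its difference was -0.08 to 0.17, and Steap3 did not pass (adjusted p = 0.659). Gene-level FPKM do not separate the Slc11a2 transcripts with and without an iron-responsive element.

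Slc11a1 encodes NRAMP1, a relative of DMT1 that pumps divalent metals out of the phagosome and limits the growth of engulfed microbes. The C57BL/6 strain is known to carry a loss-of-function form of it, so RNA level does not report transport here. The gene lies on chromosome 1 from 74375195 to 74386062. It measured 172 and 154 FPKM under wild type and 204 and 208 under Sema6D-/-, with no overlap. The rise from 163 ± 12 to 206 ± 2.5 FPKM was 0.33 ± 0.06 (SE) in log2 (adjusted p = 0.0321). The ratio of Slc11a1 to Slc11a2 FPKM was 5.62 and 5.23 in the wild type libraries and 8.06 and 7.78 in the others. The call was lost without wild type replicate 2 (adjusted p = 0.0662), Sema6D-/- replicate 1 (0.181) or Sema6D-/- replicate 2 (0.179), and the difference then lay between 0.26 and 0.35. It was also lost with the replicate block (adjusted p = 0.0584), with eBayes without trend (0.0907) and without a filter (0.295). Neutrophils also express Slc11a1, and their summed markers, mostly S100a8 and S100a9, moved with it (265 and 255 against 802 and 661 FPKM). On that list Csf3r was lower and Mmp8 overlapped between the labels. The part of neutrophils in the Slc11a1 rise was not tested.

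Both ferritin genes were somewhat higher under Sema6D-/- and neither passed. Fth1, on chromosome 19 from 9980598 to 9985098, encodes the heavy chain, which oxidises iron for storage. It was at 21874 and 22328 FPKM under wild type and 24789 and 25354 under Sema6D-/-, 13.4% higher in mean (difference 0.18, 95% interval 0.00 to 0.36, adjusted p = 0.192). Ftl1, on chromosome 7 from 45457944 to 45459884, encodes the light chain, which helps iron crystallise inside the shell. It was at 6621 and 6779 FPKM against 7838 and 8142, 19.3% higher in mean (difference 0.25, 95% interval 0.10 to 0.40, adjusted p = 0.0601). In neither gene did the labels overlap, but 28.8% of all tested genes were likewise higher without overlap.

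Ferritin messages made up a large share of the RNA measured. Fth1 and Ftl1 together held 5.40% and 5.40% of summed FPKM under wild type and 5.79% and 6.07% under Sema6D-/-. The ratio of Fth1 to Ftl1 FPKM was 3.30 and 3.29 against 3.16 and 3.11. The Ftl1 call turned positive with robust eBayes (adjusted p = 0.0143), with a mean of at least 5 FPKM (0.0295) and with a pseudocount of 0.1 (0.0432). That of Fth1 did so with robust eBayes (adjusted p = 0.039), while quantile normalization reversed its sign (difference -0.09). Ferritin genes have many near-identical copies in the mouse genome and the handling of reads with several matches is not given, so their levels are uncertain. Of symbols that begin with Fth or Ftl, the files hold only Fthl17 besides, listed at 0 in all 4 libraries.

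Slc40a1 encodes ferroportin, the only known exporter of iron ions in mammals. It lies on chromosome 1 from 45908068 to 45926523. It measured 33.7 and 35.6 FPKM under wild type and 43.1 and 45.1 under Sema6D-/-, so the lower Sema6D-/- library stood above both others. The rise from 34.6 ± 1.3 to 44.1 ± 1.4 FPKM was 0.34 ± 0.06 (SE) in log2 (95% interval 0.20 to 0.48, adjusted p = 0.0237). The ratio of Tfrc to Slc40a1, an importer set against the exporter, was 1.51 and 1.81 under wild type and 3.76 and 2.93 under Sema6D-/-. The Slc40a1 call was lost with any 1 library left out (adjusted p from 0.05 to 0.144), although the difference stayed between 0.30 and 0.38. It was also lost with eBayes without trend (adjusted p = 0.0661) and without a filter (0.19).

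Cp encodes ceruloplasmin, a copper oxidase that converts exported iron to the ferric form that transferrin binds. It lies on chromosome 3 from 19957054 to 20009145. It was the lowest member, at 1.41 and 0.693 FPKM under wild type and 0.334 and 0.264 under Sema6D-/-. Over the union of its exons these equal at most about 120, 62, 26 and 21 fragments. Both wild type libraries were above both others, and they differed from each other by more than either Sema6D-/- value. In the fit with no filter the difference was -0.64 (95% interval -1.42 to 0.15, adjusted p = 0.489). It was -0.38 without wild type replicate 1, and it was -1.46 with a pseudocount of 0.1 and -0.19 with a pseudocount of 5.

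**Figure D2:**
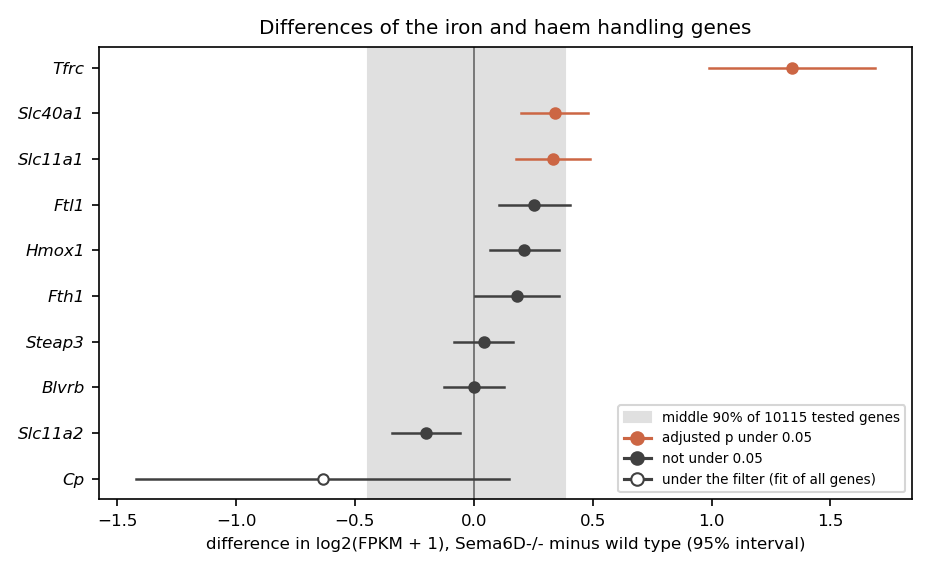
Difference in log2(FPKM + 1), Sema6D-/- minus wild type, with 95% intervals from limma for the 10 genes. The grey band holds the middle 90% of tested genes, from -0.44 to 0.38. Tfrc lies outside it at 1.34, and so does Cp at -0.64, which was under the filter and not called. Slc40a1 (0.34) and Slc11a1 (0.33) pass the test from within the band.

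The haem breakdown genes were abundant and did not pass. Hmox1, on chromosome 8 from 75093621 to 75100589, encodes the inducible haem oxygenase that opens the haem ring and frees its iron. It was at 576 and 537 FPKM under wild type and 625 and 665 under Sema6D-/-, 15.9% higher in mean without overlap (difference 0.21, 95% interval 0.07 to 0.36, adjusted p = 0.0885). No alternative tried turned this into a call (adjusted p from 0.0564 to 0.412). Blvrb, on chromosome 7 from 27447978 to 27466144, encodes a biliverdin and flavin reductase. It was at 590 and 602 against 577 and 615 FPKM, with the wild type pair inside the range of the other pair. Its difference was 0.00 with an interval from -0.12 to 0.13 (adjusted p = 0.993), and its sign changed between settings.

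Among the members with a 5′ hairpin, Fth1, Ftl1 and Slc40a1 were thus 13.4%, 19.3% and 27.3% higher in mean FPKM under Sema6D-/-. Of these only Slc40a1 passed, and quantile normalization reversed the sign of Fth1. Tfrc, with the 3′ hairpins, was 155% higher. Members without a match also differed: Slc11a1 was 26.1%, Hmox1 15.9%, Steap3 3.0% and Blvrb 0.1% higher. Slc11a2 was 13.5% lower and did not pass, and Cp was lower but under the filter. Some Slc11a2 transcripts carry an iron-responsive element that the search did not match. The ratio of Fth1 to Tfrc FPKM was 428 and 347 in the wild type libraries and 153 and 192 in the Sema6D-/- libraries. The labels did not overlap in it, nor did they in Fth1 or Tfrc alone, so the ratio is no separate result. Of all tested genes, 28.8% were likewise higher without overlap. Messenger RNA levels do not show translation, which is where the 5′ hairpins are known to act.

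The genes that sense iron did not pass the test. Aco1 and Ireb2 encode the iron regulatory proteins, and Fbxl5 the iron-sensing ligase that degrades Ireb2 protein. By group mean, wild type first, Aco1 was at 23.5 ± 0.61 and 25.6 ± 1.3 FPKM, Ireb2 at 18.1 ± 0.77 and 16.7 ± 0.78, and Fbxl5 at 19.6 ± 1.3 and 18.2 ± 0.096. On the list of iron sensing and the hepcidin axis, 0 of 9 tested genes passed limma, and 0 did so at an unadjusted p under 0.05. Over all tested genes 4.80% passed as higher and 4.91% as lower, and 12.9% and 12.2% did so without adjustment. The hepcidin genes Hamp and Hamp2, and with them Hfe2 and Tmprss6, were listed at 0 in all 4 libraries. On the list of iron release and ferritin turnover 0 of 5 passed, with 1 higher at an unadjusted p under 0.05. There Ncoa4, the receptor that delivers ferritin to autophagy, was at 5.85 ± 0.47 and 5.84 ± 0.33 FPKM. No other tool was run on the main comparison.

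Among genes of iron uptake, those for transferrin and 2 secreted iron-binding proteins were higher under Sema6D-/-. Trf, which encodes transferrin, the ligand of the receptor, was at 214 and 244 FPKM under wild type and 386 and 329 under Sema6D-/-. It rose 1.56-fold in mean (adjusted p = 0.0194). Lcn2, which binds bacterial iron carriers, rose from 6.26 ± 1.7 to 22.4 ± 0.095 FPKM (adjusted p = 0.00545). Ltf, lactoferrin, rose from 2.91 ± 0.27 to 11.1 ± 3.0 (adjusted p = 0.00876). Lcn2 and Ltf are granule genes of neutrophils and stand on that marker list too, where Csf3r was lower and Mmp8 overlapped between the labels. Slc39a14, a transporter of iron that is not bound to transferrin, fell from 8.59 ± 0.48 to 5.30 ± 0.64 FPKM (adjusted p = 0.0262). Over all tested genes 4.80% passed as higher and 4.91% as lower. In all, 3 of 7 tested genes of iron uptake and reduction were higher and 1 lower, with a median difference of 0.16, and with either Sema6D-/- library left out 1 was higher and 0 lower. Trf lost its call when wild type replicate 1 or 1 of the Sema6D-/- libraries was left out, Lcn2 without either Sema6D-/- library, and Slc39a14 without any 1 library (highest adjusted p = 0.115, 0.0749 and 0.157). Ltf kept its call with each library left out, with a difference between 1.35 and 1.87. Without a filter the Ltf call was lost too (adjusted p = 0.216).

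**Figure D3:**
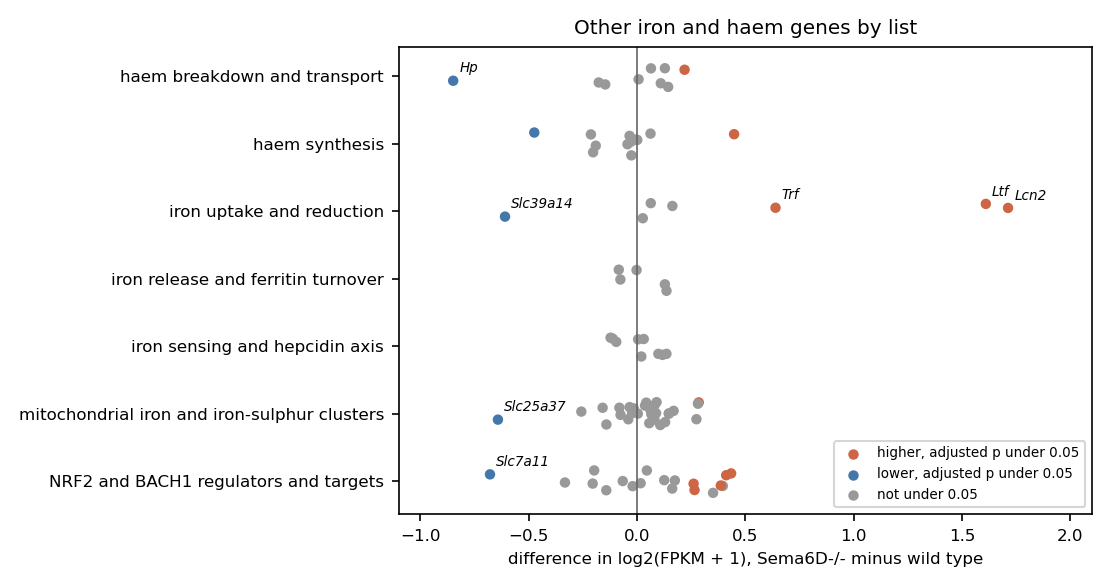
Difference in log2(FPKM + 1), Sema6D-/- minus wild type (x axis), for the 90 tested genes of 7 other iron and haem lists (rows, points spread vertically for legibility), coloured by the test. Lcn2 and Ltf lie farthest to the right and Hp farthest to the left; names are given beyond 0.6 in either direction.

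Haem synthesis had 1 of 12 tested genes higher and 1 lower, and haem breakdown and transport, without the members, 1 of 9 higher and 1 lower. Over all tested genes 4.80% were higher and 4.91% lower. Alas1, the rate-limiting enzyme of haem synthesis outside red cells, was at 317 and 312 FPKM under wild type and 216 and 237 under Sema6D-/-. It fell from 314 ± 3.6 to 226 ± 14 (adjusted p = 0.01). Uros, a later enzyme of that path, rose from 3.04 ± 0.039 to 4.51 ± 0.17 (adjusted p = 0.0468), and the median of the synthesis list was -0.03. Blvra, which reduces biliverdin to bilirubin after Hmox1 has acted, rose from 139 ± 0.71 to 162 ± 3.0 FPKM (adjusted p = 0.0346). Hp, the haemoglobin-binding protein haptoglobin, fell from 3.36 ± 0.25 to 1.42 ± 0.098 (adjusted p = 0.0149). The constitutive oxygenase gene Hmox2 (92.6 ± 4.6 and 81.8 ± 1.6) and the phagosomal haem transporter gene Slc48a1 (356 ± 7.4 and 385 ± 8.2) did not pass. Alas1 lost its call without Sema6D-/- replicate 1 (adjusted p = 0.0686), and Uros and Blvra lost theirs with any 1 library left out (highest adjusted p = 0.202 and 0.179). The same happened to Hp when wild type replicate 2 or 1 of the Sema6D-/- libraries was left out (highest adjusted p = 0.0998).

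In mitochondrial iron handling 1 of 29 tested genes was higher and 1 lower, near the 4.80% and 4.91% of all tested genes. Slc25a37, mitoferrin 1, which carries iron into mitochondria, fell from 9.0 ± 0.29 to 5.42 ± 0.38 FPKM (adjusted p = 0.0134). Hspa9, a mitochondrial chaperone of iron-sulphur cluster transfer and of protein import, rose from 115 ± 0.19 to 140 ± 0.36 (adjusted p = 0.0162). Hspa9 lost its call without any 1 library, and Slc25a37 when any library but wild type replicate 2 was left out (highest adjusted p = 0.117 and 0.114). The median of the list was 0.06.

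NRF2 and BACH1 are the factors best known for switching Hmox1, the ferritin genes and Slc40a1 on and off. Nfe2l2, which encodes NRF2, was at 156 ± 4.3 and 149 ± 6.7 FPKM and did not pass (adjusted p = 0.496). Bach1, the haem-sensing repressor, rose from 29.4 ± 0.91 to 35.5 ± 1.1 (adjusted p = 0.045). Of 19 tested genes on this list 5 were higher and 1 lower, against 4.80% and 4.91% of all tested genes. The median difference of the list was 0.13. Besides Bach1, the higher genes were Gsr, glutathione reductase (30.8 ± 1.2 to 41.2 ± 0.83), the transcription factor Maf (11.2 ± 0.14 to 15.5 ± 0.95), Pgd of the pentose phosphate path (388 ± 10 to 465 ± 18) and the redox enzyme gene Srxn1 (233 ± 5.7 to 305 ± 31). Maff, Mafg and Mafk, the other Maf family genes on the list, did not pass (adjusted p = 0.141, 0.761 and 0.886). Slc7a11, the cystine transporter, fell from 7.30 ± 0.11 to 4.19 ± 0.15. Members of this list thus went both ways. Quantile normalization left 3 higher, and both the replicate block and eBayes without trend left 2. Leaving out a wild type library left 1 higher, and leaving out a Sema6D-/- library left 0 higher and 0 lower.

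**Figure D4:**
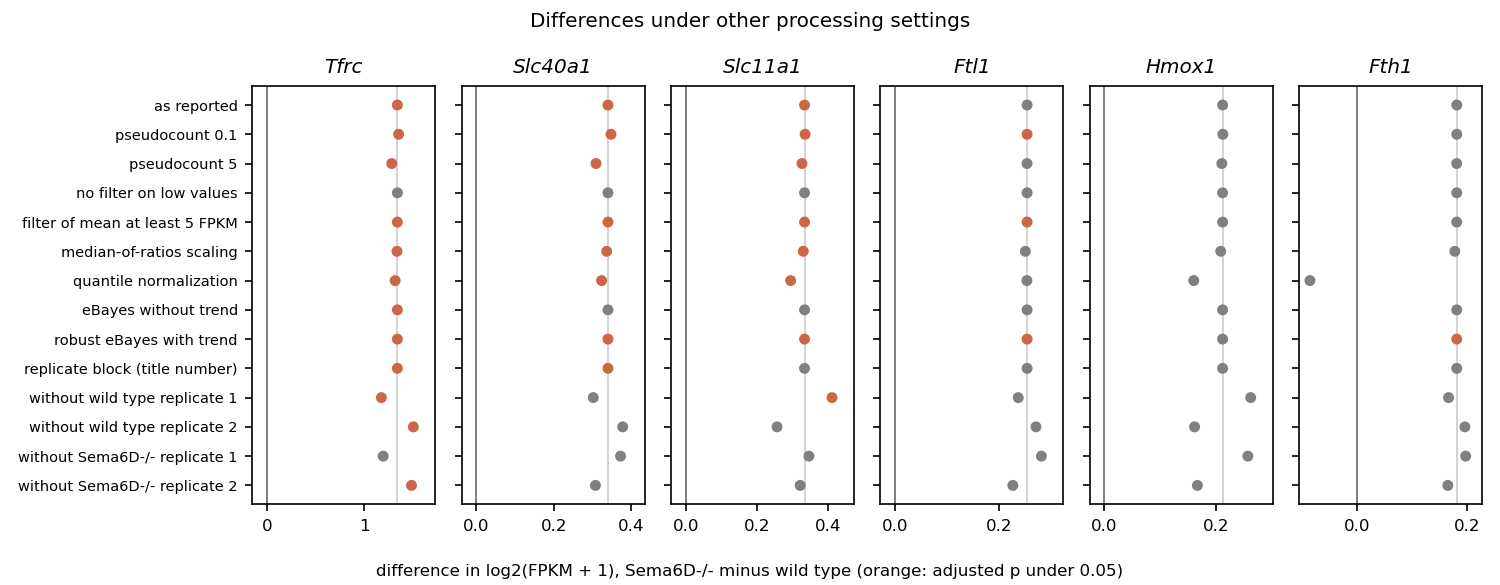
Difference in log2(FPKM + 1), Sema6D-/- minus wild type (x axes, each with its own range), of 6 genes under the reported fit and 13 other settings (rows), orange where the adjusted p is under 0.05. Tfrc, Slc40a1, Slc11a1, Ftl1 and Hmox1 stay above 0 in every setting, and Fth1 falls to -0.09 after quantile normalization.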

How the data were processed

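RNA was sequenced from 4 libraries, grouped by genotype label. The authors deposited 1 FPKM value per gene symbol, normalized between libraries with Cuffnorm 2.2.1 after TopHat2 2.0.13, Bowtie2 2.2.3 and SAMtools 0.1.19 on build mm10, per the submitters' processing notes. Libraries were strand-specific, per the labels' protocols; which annotation and strand setting were used, and how reads with several matches were treated, is not given in the sources used here. Of 23284 symbols, 25 had no value.

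Differences were fitted across all genes with limma 3.58.1 in R 4.3.3 (two-sided, eBayes with trend). The scale was log2(FPKM + 1), the 10115 genes were those whose mean reached 1 FPKM, and Benjamini-Hochberg adjusted p-values were read at 0.05. An exact permutation of 2 against 2 libraries could not go below p = 0.333. FPKM values under 0.1 of 2 libraries stood in whole-number ratios, within 0.02 in log2 and after the best common scale for each pair, for 89.0% to 92.5% of genes, and exon lengths then gave the depth. A gene near 1 FPKM rests on few fragments. An exact 0 can be a failed estimate: Gapdh was listed at 0 in 3 libraries.

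The members and lists were chosen with earlier results of these data known. Named genes were all members, up to 5 called genes per pathway list, 10 regulators and transporters whatever their p, and, by rule, up to 3 abundant markers per marker list, of which the text gives those that bear on a member; Mki67 and Pcna were added after their values were seen. Other names came from RefSeq synonyms for 5 listed symbols, such as Trf. Alternatives were other pseudocounts, filters, scalings, variance models, a replicate block, and leaving out each library.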

Additional observations from a re-analysis of the deposited data

How the results depend on the processing

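Over all genes, 486 were higher and 497 lower, and 115 and 99 without a filter, 261 higher and 327 lower with eBayes without trend, and 300 higher with the replicate block. Among the members, 3 were higher, and 0 without a filter, 1 with eBayes without trend and 5 with robust eBayes. Of the other iron and haem genes, 11 were higher and 5 lower, and 2 and 0 without a filter, 5 higher with eBayes without trend and 6 higher with the replicate block. Leaving out 1 library gave 72 to 276 higher and 87 to 290 lower over all genes, 0 to 2 members higher and 0 lower, and 1 to 4 other iron and haem genes higher and 0 to 3 lower. Of the 26 called genes named by rule besides the members, 0 kept the call in every alternative. The cause of the lost calls was not tested. Same-numbered libraries did not deviate together (r = -0.02 over genes). With 2 libraries per label this cannot exclude that the number in the title pairs them. The sign of Blvrb reversed with median-of-ratios scaling (-0.0025) and quantile normalization (-0.117), and with 1 library left out its difference lay between -0.0449 and 0.0469. That of Fth1 reversed with quantile normalization (-0.0851), which sets the value at each rank equal between libraries. That of Ncoa4 reversed with quantile normalization (0.0244), and with 1 library left out it lay between -0.0725 and 0.0689. A pseudocount of 5 lowered the size of the difference by over 1.5 times for low genes such as Hp (-0.38), Ltf (1.01), Uros (0.24) and Mki67 (-0.26). Depth limits Cp and other genes near or under 1 FPKM.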
